A study of Rattus norvegicus with 27 samples.

Results

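The genes described here build the entrance to the secretory pathway of the parotid acinar cell: the receptor and translocation channel of the endoplasmic reticulum (ER), the signal peptidase, and the enzymes that assemble, attach and first trim N-linked glycans. The list gave 40 names for 39 genes, since Srpr is the older symbol of Srpra. All 39 genes were measured, of 14217 genes with a symbol of their own on the array, and each was read from the probe set with the highest mean level over all arrays. They were divided by role into translocon (10 genes), signal recognition (8), signal peptidase (5), oligosaccharide transfer (9), and glycan precursor and trimming (7).

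Acinar cells were captured by laser microdissection from parotid sections of Sprague Dawley rats, and their RNA was hybridised to Affymetrix rat genome arrays. There were 27 arrays, 3 for each of 9 ages, with no treatment or genotype differing between them. Before birth the ages were E18 and E20 (days of gestation), and after it P0 (the newborn), P2 and P5, followed by P9 and P15 and finally P20 and P25 (days of life). The study grouped these ages, from the same arrays, into stage 1 (E18, E20 and P0, 9 arrays), stage 2 (P2 and P5, 6 arrays), stage 3 (P9 and P15, 6 arrays) and stage 4 (P20 and P25, 6 arrays), which is why a difference between stages cannot speak for where their limits lie. By the study's methods the 3 samples of an age came from separate litters, caps of one sample were combined, and acinar cells were recognised by eye in stained sections. Sections were cut from divided heads at ages to P5 and from glands dissected free at P9 and later. Any change between P5 and P9 therefore cannot be told apart from the change in tissue block. The same limit applies to stage 4 or stage 3 against stage 1, to stage 3 against stage 2, and to P25 against E18.

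Proteins destined for secretion carry a signal peptide that is bound by the signal recognition particle (SRP) as it leaves the ribosome. The SRP receptor brings the ribosome to the Sec61 channel, the peptide chain passes into the ER lumen, signal peptidase removes the signal peptide, and oligosaccharyltransferase moves a preassembled glycan from dolichol to asparagine residues of the chain. Parotid acinar cells make amylase and other salivary proteins in bulk.

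Levels are given in log2 units, where a difference of 1 is a doubling, and changes as the later minus the earlier group ± SE from one limma fit to all 27 arrays, with p-values adjusted over the 31042 probe sets tested and a threshold of 0.05. Levels of different genes come from different probes and are not compared with each other. Array medians lay between 5.91 and 6.13, correlations between arrays of one age between 0.873 and 0.962, and single values between 1.43 and 14.63. The GAPDH control at the 3′ end exceeded that at the 5′ end by 1.12 to 2.76 among arrays, and its part in the changes was not tested. The 39 genes were bright, each above at least 72.8% of probe sets. All 8 acinar markers were higher in stage 4 than in stage 1. Amy1 (amylase) averaged 14.21 ± 0.06 at P20 and 14.44 ± 0.01 at P25, against 8.65 ± 2.29 at E18 (SD, n = 3). The mean of the acinar list per array lay between 12.07 and 12.44 in stage 4 and between 5.52 and 8.08 in stage 1. A rise with age cannot show that the acinar label holds for the stage 1 arrays. Markers of other tissues were present too. The mean of 10 skeletal muscle markers ran between 4.56 and 12.5 among arrays and lay above 9 in 9 of them, and 4 stage 1 arrays (replicate 1 of E18, E20 and P0, and replicate 3 of P0) lay above 10. In such samples fewer acinar cells and less RNA per cell cannot be told apart.

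The first question was which genes of this machinery changed across the whole of differentiation. In stage 4 compared with stage 1, 28 of the 39 genes rose, 2 fell and 9 did not pass the test, and the median change was 0.81 log2 units. Over all probe sets 27.2% were higher and 17.8% lower in the same contrast, with a median change of 0.19, and among the 8455 probe sets as bright as the dimmest of the 39 or brighter 14.3% were higher and 38.2% lower, with a median of -0.36. For 18 genes every stage 4 array lay above every stage 1 array, a pattern that 5.38% of all probe sets showed, and for 1 gene below, as in 5.46% of all probe sets. Setting changes against the shift of 0.19 takes that much off each value, which leaves Tram1 at 2.02, Sec11c at 2.00 and Srpra at 1.81 and puts Srp9 at -0.18 and Stt3a at -0.07. After quantile normalisation the shift was 0.08. The shift of the comparably bright probe sets, -0.36, has the opposite sign and would raise each value, so the signs of Srp9 and Stt3a depend on the reference. Markers of plasma cells and lymphocytes were also higher in stage 4, 7 of 10 passing, while fibroblast markers were lower. The level of the plasma cell and lymphocyte markers cannot be told apart from age in any of the role groups.

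**Figure D1:**
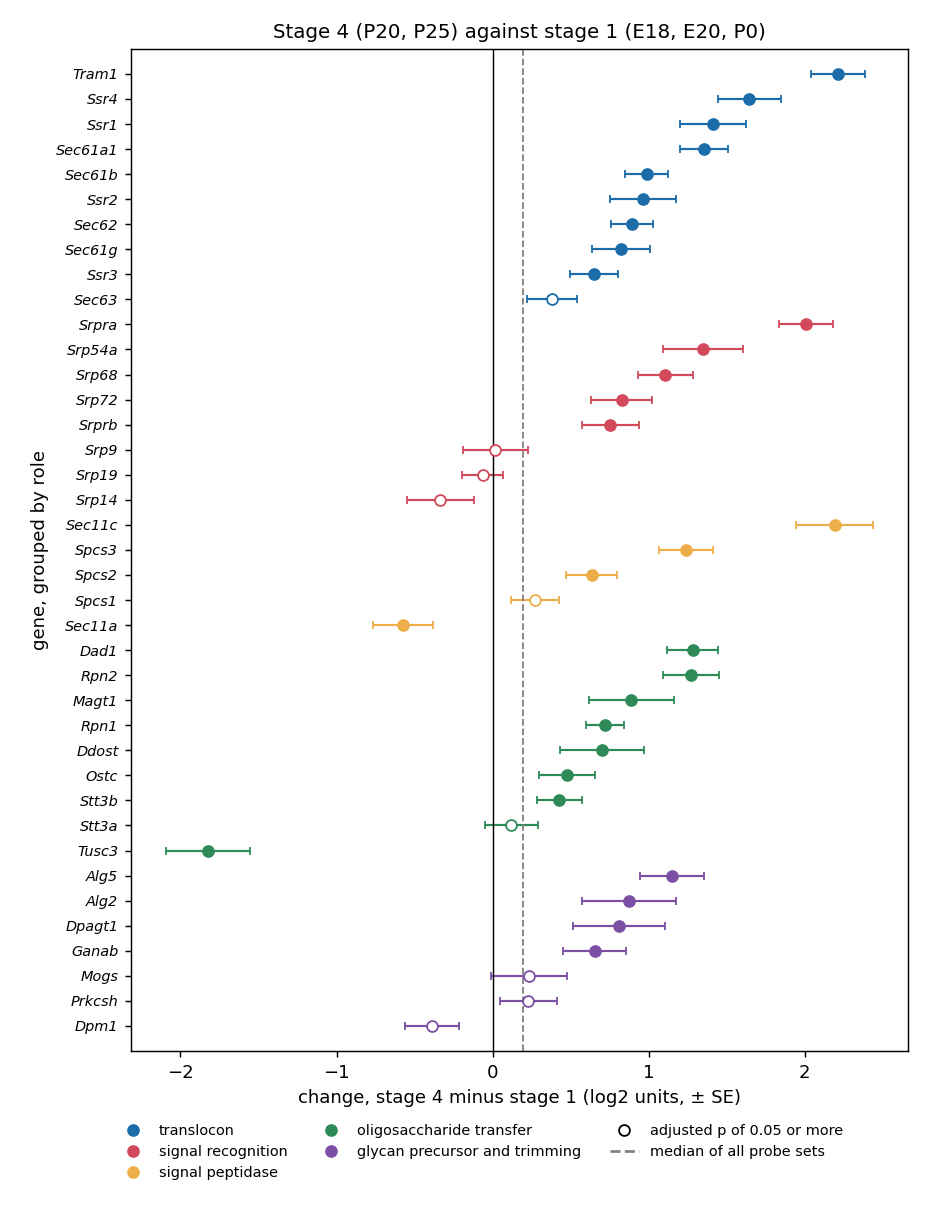
Change of each of the 39 genes between stage 4 (P20 and P25, 6 arrays) and stage 1 (E18, E20 and P0, 9 arrays) on the x axis, in log2 units with bars for ± SE, with genes grouped and coloured by role on the y axis. Filled points passed an adjusted p of 0.05 and open points did not; the dashed line is the median of all probe sets at 0.19, and Sec11a and Tusc3 are the filled points below 0.

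Of the translocon genes 9 of 10 rose, with a median of 0.98. The largest change was that of Tram1, the translocating chain-associating membrane protein, which helps nascent chains into the channel. Tram1 had levels between 11.63 and 12.24 in stage 4, with a median of 12.08, against 9.47 to 10.20 with a median of 9.70 in stage 1. The stages were far apart, every later array lying more than a full unit above every earlier one, and the change was 2.21 ± 0.17 (adjusted p 3.66e-09), a 4.63-fold difference. Ssr4, the delta subunit of the translocon-associated protein complex, had levels between 11.09 and 11.53 in stage 4, with a median of 11.43, against 9.09 to 10.15 with a median of 9.81 in stage 1. Its change was 1.64 ± 0.20 (adjusted p 2.07e-06), again without overlap. The other subunits of that complex rose by 1.41 ± 0.21 (Ssr1), 0.97 ± 0.21 (Ssr2) and 0.65 ± 0.15 (Ssr3). All 3 subunits of the channel itself rose: Sec61a1, which forms the pore, by 1.35 ± 0.15, and the small subunits Sec61b and Sec61g by 0.99 ± 0.14 and 0.82 ± 0.18. Sec62, which serves translocation after translation, rose by 0.89 ± 0.14.

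Sec63, a membrane protein with a J domain that works with Sec62 and the lumenal chaperone BiP, was the one translocon gene that did not pass. It had levels between 9.75 and 10.56 in stage 4, with a median of 9.96, against 9.34 to 10.29 with a median of 9.63 in stage 1, so that the stages overlapped. The change was 0.38 ± 0.16 (adjusted p 0.0585). It passed after quantile normalisation (0.61, adjusted p 0.00382), with array weights (0.40), with a variance trend (0.38) and with the mean of its probe sets (0.59). Its 4 probe sets did not give the same call: the second in brightness rose by 1.36 ± 0.33 (adjusted p 0.00256), and between P25 and E18 the brightest itself was higher, by 0.77 ± 0.25 (adjusted p 0.0215).

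Among the signal recognition genes 5 of 8 rose, with a median of 0.79, and the genes that rose were the receptor and the larger particle proteins. Srpra, the receptor subunit that docks the particle at the membrane, had levels between 11.75 and 12.47 in stage 4, with a median of 12.15, against 9.75 to 10.75 with a median of 10.18 in stage 1. It rose by 2.01 ± 0.17 (adjusted p 1.57e-08), while Srprb, which anchors it, rose by 0.75 ± 0.18 with overlapping stages. Srp54a, the rat symbol for the protein that binds the signal peptide, had levels between 9.13 and 10.08 in stage 4, with a median of 9.37, against 7.50 to 8.73 with a median of 8.34 in stage 1. Its change of 1.35 ± 0.26 passed (adjusted p 0.000316) and its 3 probe sets all rose. Srp68 and Srp72, which bind the particle RNA as a pair, rose by 1.11 ± 0.18 and 0.83 ± 0.20.

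The remaining particle proteins did not pass the test. Srp14, which with Srp9 forms the domain that slows translation, had levels between 7.92 and 9.66 in stage 4, with a median of 9.39, against 9.21 to 9.72 with a median of 9.59 in stage 1. Its stages overlapped and its change was -0.33 ± 0.22 (adjusted p 0.212). Srp9 changed by 0.02 ± 0.21 and Srp19, which assembles the particle around its RNA, by -0.06 ± 0.13. The precision of the fit leaves small changes of these genes undecided, since the standard errors lay between 0.13 and 0.22.

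Of the 5 signal peptidase genes 3 rose and 1 fell. Sec11c, one of the alternative catalytic subunits, had levels between 12.51 and 12.91 in stage 4, with a median of 12.73, against 9.47 to 11.08 with a median of 10.69 in stage 1. The groups did not overlap and the rise was 2.19 ± 0.24 (adjusted p 5.97e-07), or 4.56-fold. Spcs3, an accessory subunit needed for activity, had levels between 11.43 and 11.96 in stage 4, with a median of 11.79, against 9.90 to 10.79 with a median of 10.53 in stage 1, a rise of 1.24 ± 0.17 (adjusted p 1.21e-05). Spcs2 rose by 0.63 ± 0.16 with overlapping stages, and Spcs1 changed by 0.27 ± 0.15 (adjusted p 0.152), though after quantile normalisation it was higher by 0.47 (adjusted p 0.00922).

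Sec11a, the other catalytic subunit, was lower. It had levels between 9.999 and 11.48 in stage 4, with a median of 11.10, against 11.25 to 11.93 with a median of 11.46 in stage 1, and fell by 0.58 ± 0.19 on the log2 scale (adjusted p 0.0207). The stages overlapped, and the lowest value was that of P25 replicate 1; the call was lost without that array (change -0.35, adjusted p 0.0872), without P20 replicate 2, after quantile normalisation (-0.35) and without the 4 stage 1 arrays high in muscle markers (-0.63).

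Of the 9 oligosaccharide transfer genes 7 rose and 1 fell. Dad1, a small subunit of oligosaccharyltransferase named for its role as a defender against cell death, had levels between 10.22 and 10.94 in stage 4, with a median of 10.70, against 8.84 to 9.72 with a median of 9.50 in stage 1. Rpn2, one of the ribophorins, had levels between 10.65 and 11.17 in stage 4, with a median of 11.01, against 9.50 to 9.84 with a median of 9.73 in stage 1. Both were free of overlap, with rises of 1.28 ± 0.16 for Dad1 (adjusted p 3.07e-06) and 1.27 ± 0.18 for Rpn2 (adjusted p 1.14e-05). Smaller rises were those of Rpn1, the other ribophorin (0.72 ± 0.12), the noncatalytic subunits Ddost (0.70 ± 0.27) and Ostc (0.48 ± 0.18), the oxidoreductase subunit Magt1 (0.89 ± 0.27) and the catalytic subunit Stt3b (0.43 ± 0.14). The other catalytic subunit, Stt3a, changed by 0.12 ± 0.17 (adjusted p 0.581). The calls for Ddost and Ostc were the least secure of these, each lost without any 1 of 9 arrays, with changes then between 0.64 and 0.70 for Ddost and between 0.41 and 0.47 for Ostc.

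Tusc3, an oxidoreductase subunit that keeps cysteines of a substrate accessible for glycosylation, moved the other way. It had levels between 5.53 and 8.42 in stage 4, with a median of 7.42, against 8.64 to 9.48 with a median of 8.86 in stage 1. Every later array lay below every earlier one and the change was -1.82 ± 0.27 (adjusted p 2.06e-05), although the spread among stage 4 arrays (SD 0.96, n = 6) was the widest of that stage among the 39 genes. Fibroblast markers fell over the same interval: 6 of 8 were lower, and their mean per array lay between 9.25 and 10.3 in stage 4 and between 10.5 and 11.6 in stage 1. Their part in the lower values of Tusc3 and Sec11a was not tested.

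Of the 7 genes of glycan precursor and trimming 4 rose and none fell. Alg5, which makes the glucose donor for the dolichol-linked glycan, had levels between 10.23 and 11.27 in stage 4, with a median of 10.99, against 9.19 to 10.17 with a median of 9.81 in stage 1. The rise was 1.15 ± 0.21 (adjusted p 0.000173), and it was the one gene of the group whose stages did not overlap. Alg2, a mannosyltransferase of the precursor, had levels between 8.17 and 9.41 in stage 4, with a median of 8.85, against 7.31 to 8.73 with a median of 7.58 in stage 1. Its rise of 0.88 ± 0.30 (adjusted p 0.0231) was lost without P20 replicate 3 or P25 replicate 2. Dpagt1, which starts the precursor and is the target of tunicamycin, rose by 0.81 ± 0.30, a call that was lost without any 1 of 5 arrays, with array weights (0.55, adjusted p 0.136), with the tissue covariates (0.62) and without the muscle-high arrays (0.68). Ganab, the catalytic subunit of glucosidase II, rose by 0.65 ± 0.20.

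Dpm1, the catalytic subunit of dolichol-phosphate mannose synthase, had levels between 9.79 and 10.78 in stage 4, with a median of 10.17, against 10.33 to 10.96 with a median of 10.54 in stage 1. The change was -0.39 ± 0.17 (adjusted p 0.0732), and its 4 probe sets disagreed, the third in brightness being higher in stage 4 by 0.73 ± 0.28. Mogs, which is glucosidase I, changed by 0.23 ± 0.24, and Prkcsh, the partner subunit of Ganab, by 0.23 ± 0.18. Over all 39 genes, 14 had several probe sets, and the calls within a gene differed for Sec63, Srprb, Alg2 and Dpm1.

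The next question was when these changes took place. Stage 2 was not distinguished from stage 1 for any of the 39 genes in the limma fit (0 called, 5 with an unadjusted p under 0.05), where 1.63% of all probe sets were higher and 1.33% lower. Stage 3 was likewise not distinguished from stage 2 (0 called, 7 with an unadjusted p under 0.05), where 0.28% were higher and 0.48% lower. In stage 4 compared with stage 3, both from dissected glands, 22 genes rose and 1, Tusc3, fell, against 4.09% and 4.27% of all probe sets. The median change of the 39 genes was 0.75 and that of all probe sets 0.09. By role 8 of 10 translocon genes rose, 5 of 8 of signal recognition, 3 of 5 of signal peptidase, 4 of 9 of oligosaccharide transfer and 2 of 7 of glycan precursor and trimming.

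Stage 3 was also compared with stage 1, a contrast added after the data were seen. There 6 genes were higher and 3 lower, where 6.98% and 8.37% of all probe sets were. The rises were those of Sec11c (1.31 ± 0.24), Srpra (0.87 ± 0.17), Ssr1 (0.63 ± 0.21), Tram1 (0.57 ± 0.17), Sec62 (0.47 ± 0.14) and Rpn1 (0.39 ± 0.12), and for Sec11c and Srpra the stages did not overlap (1.6% of all probe sets lay above without overlap). Lower were Tusc3 (-0.80 ± 0.27), Dpm1 (-0.73 ± 0.17) and Sec11a (-0.60 ± 0.19), and for Tusc3 the stages did not overlap (below, in 2.77% of all probe sets). Without the 4 stage 1 arrays high in muscle markers 2 genes were called, and calls over all 31042 probe sets went from 4765 to 2219.

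**Figure D2:**
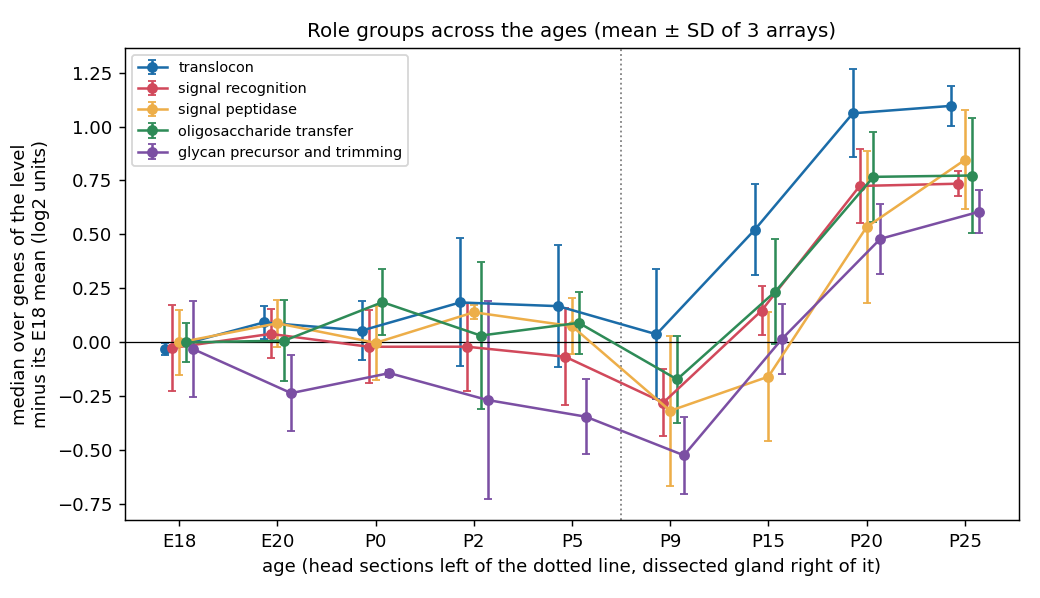
For each age on the x axis, the median over the genes of a role group of the level minus its E18 mean, in log2 units on the y axis, as the mean ± SD of 3 arrays. The groups stay within 0.6 units of 0 up to P9 and stand between 0.48 and 1.10 at P20 and P25; the dotted line marks the change from head sections to dissected glands.

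Steps between neighbouring ages were mostly too small to pass with 3 arrays a side. The single call among the 39 genes over 8 steps was Sec61a1, which rose by 1.31 ± 0.24 at P20 compared with P15 (adjusted p 0.00964). The call was lost without P15 replicate 3, P20 replicate 1 or P20 replicate 3, and with the tissue or plasma cell lists as covariates. Of all probe sets 1.49% passed in at least 1 of the 8 steps, and 0.248% were higher and 0.11% lower at this one. Sec61a1 had 9.90, 9.66 and 10.40 at P9, 10.28, 10.10 and 9.84 at P15, 11.62, 10.99 and 11.52 at P20, and 11.12, 11.47 and 11.27 at P25. It stood near its E18 mean of 10.10 at P15, and every array of P20 and P25 lay above every one of P9 and P15. At the same step 14 of the 39 genes had all 3 later arrays above all 3 earlier ones, as did 9.88% of all probe sets, and 2 had them all below, as did 7.63%. Besides Sec61a1 those above included Tram1 (1.11), Ssr4 (1.13), Srpra (1.00) and Dad1 (1.10), with adjusted p between 0.0613 and 0.147. Those below were Tusc3 (-1.66, adjusted p 0.0958) and Sec63 (-0.22, adjusted p 0.909).

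The direction of the steps was shared by most genes at P15. Compared with P9, 38 of the 39 genes were higher at P15, with a median step of 0.48, where 61.8% of comparably bright probe sets were higher; none was called in the limma fit (6 with an unadjusted p under 0.05), where 0.0226% of all probe sets were called higher and 0.0387% lower. Markers of tissue around the acini moved with this step: the mean of the skeletal muscle list lay between 4.56 and 7.203 on the P15 arrays, against 9.53 to 12.5 on the P9 arrays, and the mean of the epidermis and hair list between 4.28 and 4.90 at P15, against 6.19 to 8.98 at P9. The median changes were -5.06 for the muscle list (0 of 10 called) and -4.76 for the epidermis list (2 of 7 called lower), and their part in the step of the 39 genes was not tested. Compared with P5, 30 of the 39 were lower at P9, where 67.6% of comparably bright probe sets were lower, and this is the step at which the tissue block changed. Among the 28 genes that rose between stage 1 and stage 4, the largest step was P20 against P15 for 14 and P15 against P9, the step with the lower muscle and epidermis levels, for 12, with 1 each at P0 against E20 and P2 against P0. The 28 genes were picked by their stage 4 and stage 1 levels, which favours a largest step between those stages over one within them. The same counts were not made for other probe sets, so they do not set the 39 genes apart. For the 14 of the 28 genes that changed by at least 1 unit between P25 and E18, the share of that change reached by P15 had a median of 45.7%. It ran between -18.1% for Srprb, which was still below its E18 level, and 78.1% for Ssr1.

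On the probe sets read, Sec11c and Sec61a1 lay far apart in this timing. Sec11c had 9.66, 10.59 and 11.08 at E18, 11.46, 11.17 and 11.82 at P9, 12.27, 12.37 and 11.99 at P15, and 12.70, 12.91 and 12.83 at P25, so that 74.6% of its change was reached by P15. For Sec61a1 that share was -2.03%. Tram1 stood between them, with 9.70, 9.94 and 9.47 at E18, 10.87, 11.19 and 10.43 at P15, and 12.12, 12.19 and 12.04 at P25, or 46.8% by P15.

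Between the first and last ages, P25 and E18, 22 genes were higher and 1, Tusc3, lower, where 20.1% and 13.4% of all probe sets were. The F statistic across the 9 ages passed the threshold for 21 of the 39 genes, compared with 24.5% of all probe sets and 35% of those of comparable brightness. They were 8 of 10 translocon genes, 4 of 8 of signal recognition, 3 of 5 of signal peptidase, 4 of 9 of oligosaccharide transfer and 2 of 7 of glycan precursor and trimming.

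**Figure D3:**
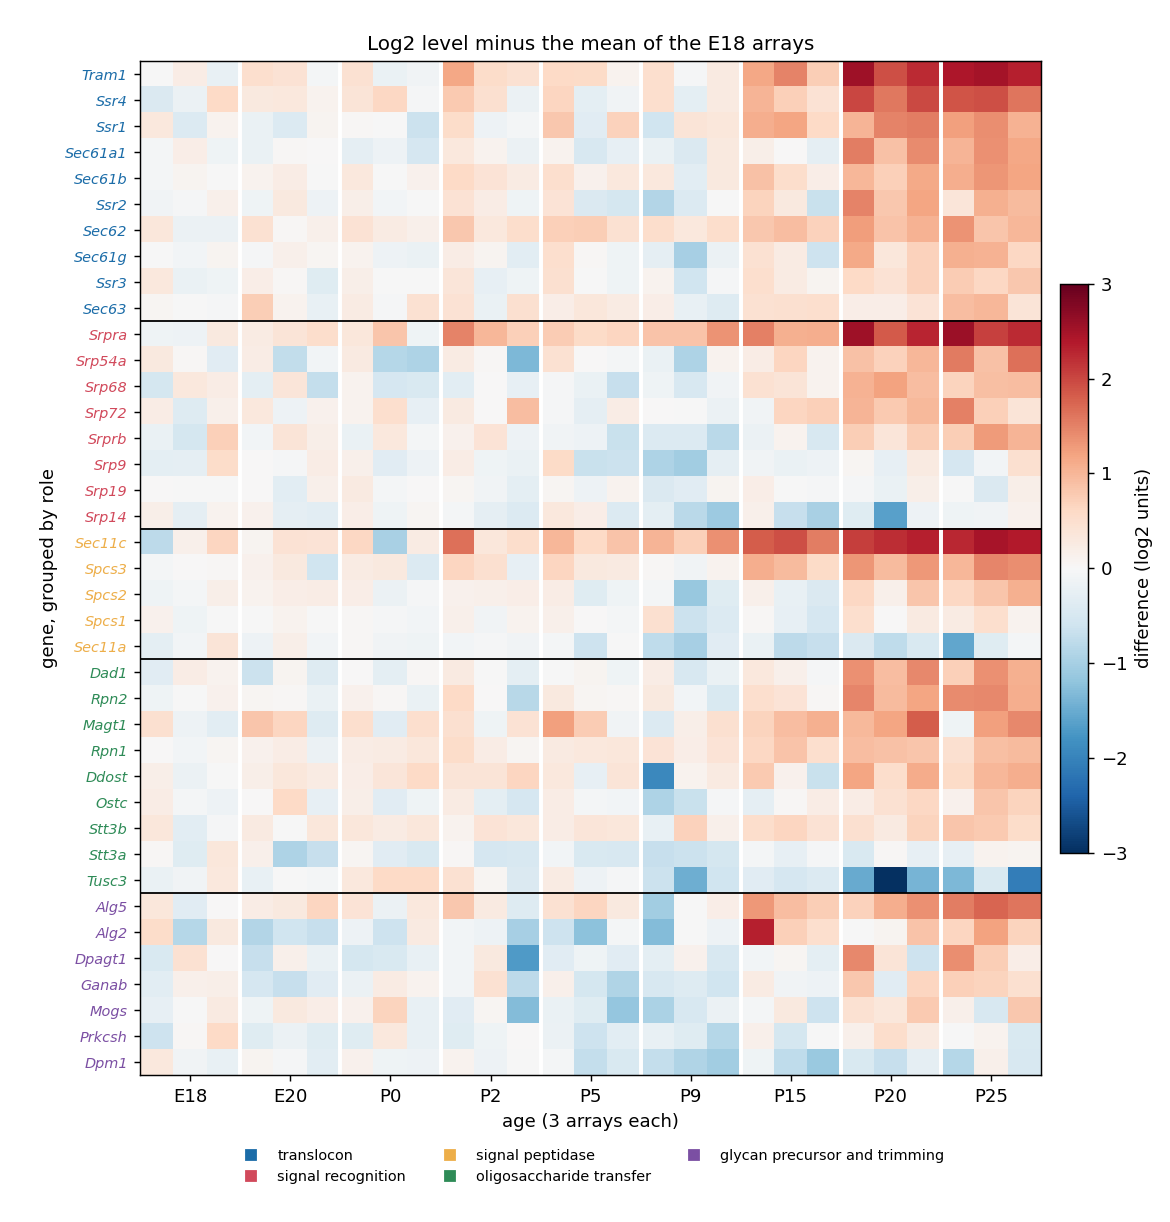
Level of each of the 39 genes (y axis, coloured and grouped by role, in order of the stage 4 against stage 1 change) on each of the 27 arrays (x axis, 3 per age), as the difference from the mean of its E18 arrays in log2 units, red above and blue below. Tram1, Srpra and Sec11c are deep red at P20 and P25, Tusc3 is blue there, and many rows are pale blue at P9.

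Oligosaccharyltransferase and signal peptidase are each built with one of a pair of alternative subunits, and 3 such pairs were set against each other within each array, so that a change common to the array cancels. Only the change of the difference can be read, since the 2 probe sets of a pair differ in brightness. Here too stage 1 came from head sections and stage 4 from dissected glands. The difference Sec11c minus Sec11a averaged 1.79 ± 0.49 in stage 4 (SD, n = 6) and -0.98 ± 0.48 in stage 1 (SD, n = 9). It ran between 1.34 and 2.70 in stage 4 and between -1.96 and -0.51 in stage 1, and its change of 2.77 had p = 0.0004 in a two-sided exact permutation test, the smallest value this design can give (0.0006 adjusted over the 3 pairs). Over the ages it averaged -1.10, -0.77, -1.06, -0.18, -0.06, 0.64, 1.22, 1.65 and 1.92 from E18 to P25, each age from P2 on having a higher mean than the one before it.

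The difference Tusc3 minus Magt1 averaged -0.89 ± 1.22 in stage 4 (SD, n = 6) and 1.82 ± 0.65 in stage 1 (SD, n = 9). It ran between -2.64 and 0.65 in stage 4 and between 0.82 and 2.82 in stage 1, a change of -2.71 with p = 0.0004 in the exact permutation test (adjusted 0.0006). These oxidoreductase subunits replace one another in the Stt3b form of the enzyme, which glycosylates sites missed during translation. Magt1 had levels between 6.87 and 8.82 in stage 4, with a median of 8.19, against 6.61 to 7.82 with a median of 7.48 in stage 1. Both genes thus contributed to the change of their difference, Tusc3 with the larger share.

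For the catalytic subunits the change of the difference did not pass. Stt3a minus Stt3b averaged -2.78 ± 0.32 in stage 4 (SD, n = 6) and -2.47 ± 0.45 in stage 1 (SD, n = 9), a change of -0.31 (p = 0.169, exact permutation test; adjusted 0.169) with overlapping groups. Stt3a had levels between 7.92 and 8.47 in stage 4 against 7.45 to 8.71 in stage 1, and Stt3b had 10.70 to 11.27 in stage 4 against 10.12 to 10.78 in stage 1.

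**Figure D4:**
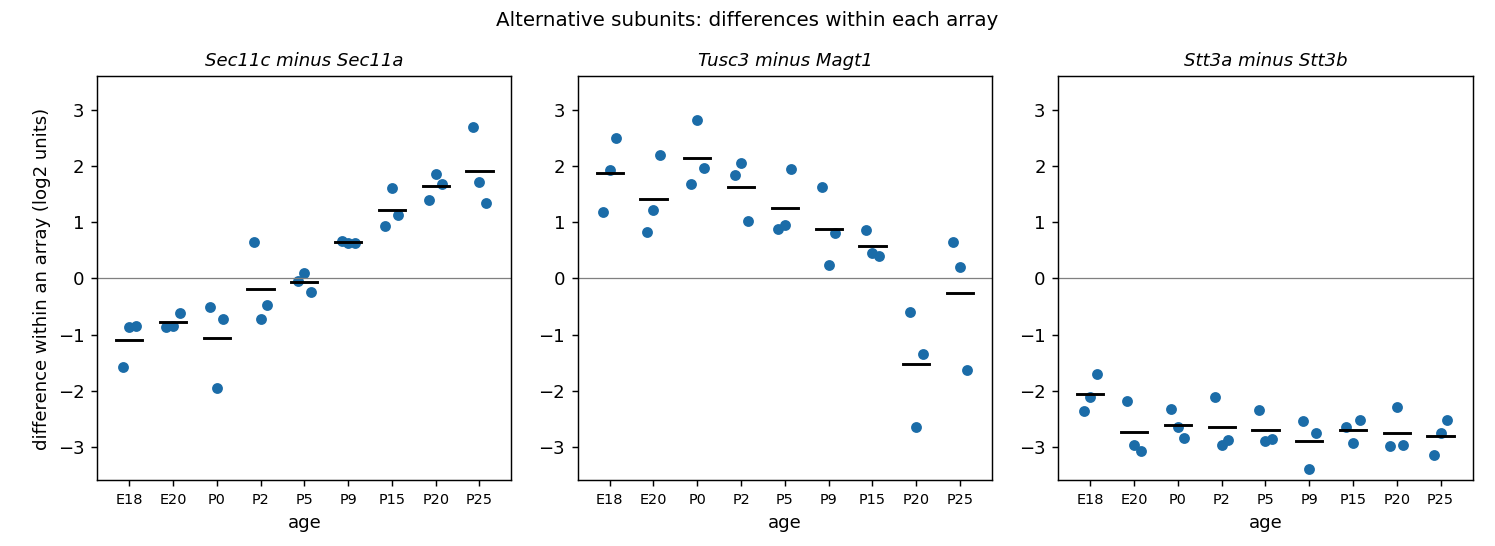
Difference between the log2 levels of 2 alternative subunits within each array (y axis, points) at each age (x axis), with the mean of 3 arrays as a bar. Sec11c minus Sec11a climbs to a mean of 1.92 at P25, Tusc3 minus Magt1 falls below 0 at P20 and P25, and Stt3a minus Stt3b has means between -2.06 and -2.89.

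Of 82 further genes of the pathway, 30 rose (36.6%) and 11 fell (13.4%) in stage 4 compared with stage 1, with a median of 0.34, beside 27.2% and 17.8% of all probe sets and their median of 0.19, and 20 rose and 1 fell in stage 4 compared with stage 3. Of 10 other translocon factors 4 rose and 1 fell. The rises were led by Sil1 (1.35 ± 0.22), the nucleotide exchange factor of BiP, Hyou1 (1.31 ± 0.23), a large lumenal chaperone, and the J protein Dnajc1 (1.28 ± 0.19). The fall was that of Sec61a2, the alternative form of the pore subunit, with means of 7.57 in stage 4 and 9.19 in stage 1 (change -1.62 ± 0.30, adjusted p 0.00023), while Sec61a1 rose.

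Among 22 genes of membrane insertion, which place proteins into the ER membrane by other routes, 4 rose (18.2%) and 3 fell (13.6%), neither share being above that of all probe sets. Nomo1 (1.54 ± 0.27) and Ncln (0.89 ± 0.18), partners in one translocon-associated complex, and Emc7 (0.72 ± 0.22) were higher, and Camlg (-1.59 ± 0.39), a receptor for tail-anchored proteins, and Emc2 (-1.06 ± 0.22) were lower. Of the 4 other oligosaccharyltransferase subunits only Krtcap2 passed, higher by 1.41 ± 0.24.

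The assembly of the dolichol-linked glycan had 10 of 23 genes higher (43.5%) and 2 lower (8.7%). Alg3 (1.79 ± 0.24) and Alg1 (1.49 ± 0.21), mannosyltransferases of the precursor, and Pmm2 (1.77 ± 0.20), which supplies activated mannose, had the largest rises. Srd5a3 (-1.13 ± 0.40), which makes dolichol, and Mpi (-0.87 ± 0.34), which converts fructose 6-phosphate to mannose 6-phosphate, were lower. In the folding cycle and later trimming 11 of 23 genes rose (47.8%) and 5 fell (21.7%), the second share being near the 17.8% of all probe sets. Mgat4a, which adds a branch to complex glycans in the Golgi, rose by 3.07 ± 0.29 (adjusted p 6.44e-08), Uggt1, the folding sensor that adds glucose back to misfolded chains, by 2.02 ± 0.36, and Man2a1, Golgi mannosidase II, by 1.74 ± 0.19. St6gal1, which caps glycans with sialic acid, was lower without overlap (change -1.50 ± 0.18), and so, with overlap, was Uggt2, the relative of Uggt1 (-1.66 ± 0.58).

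Markers of plasma cells, which have an extensive secretory pathway of their own and settle in salivary glands, moved with the later ages. Of 10 plasma cell and lymphocyte markers measured 7 were higher in stage 4 than in stage 1, and the mean of the list per array lay between 5.80 and 6.25 in stage 4 and between 3.70 and 4.31 in stage 1. Jchain, the joining chain of immunoglobulin A, averaged 3.99 ± 0.26 at P9, 5.90 ± 0.26 at P15, 10.53 ± 0.15 at P20 and 11.49 ± 0.21 at P25 (SD, n = 3). For Mzb1, an ER protein of B cells and plasma cells, the means were 7.33 ± 0.42, 10.85 ± 0.77 and 9.19 ± 0.76 at P15, P20 and P25. The B cell surface marker Ms4a1 was near the bottom of the scale throughout, with age means between 2.29 and 3.71, and the leukocyte marker Ptprc did not pass (0.31 ± 0.45).

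In a fit with the plasma cell list as a covariate none of the 39 genes was called in stage 4 compared with stage 1, stage 4 compared with stage 3, or P25 compared with E18. Of all 31042 probe sets that fit called 65, 22 and 75 in these contrasts, against 13977, 2594 and 10393 without the covariate. The loss of calls was thus not particular to the 39 genes. The plasma cell list had 95.6% of its variance between ages, and the acinar list 98.3%, so age and the marker level cannot be told apart in these samples. With the muscle, epidermis and cartilage lists as covariates 23 of the 39 genes were called in stage 4 compared with stage 1, where calls over all probe sets went from 13977 to 6348. The calls lost were those of Sec61g, Srprb, Spcs2, Ostc, Alg2, Dpagt1 and Ganab. Without the 4 stage 1 arrays high in muscle markers the calls of Srprb, Sec11a, Ddost, Ostc, Dpagt1 and Ganab were lost and Sec63 passed (0.56). Calls over all probe sets then numbered 8611.

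**Figure D5:**
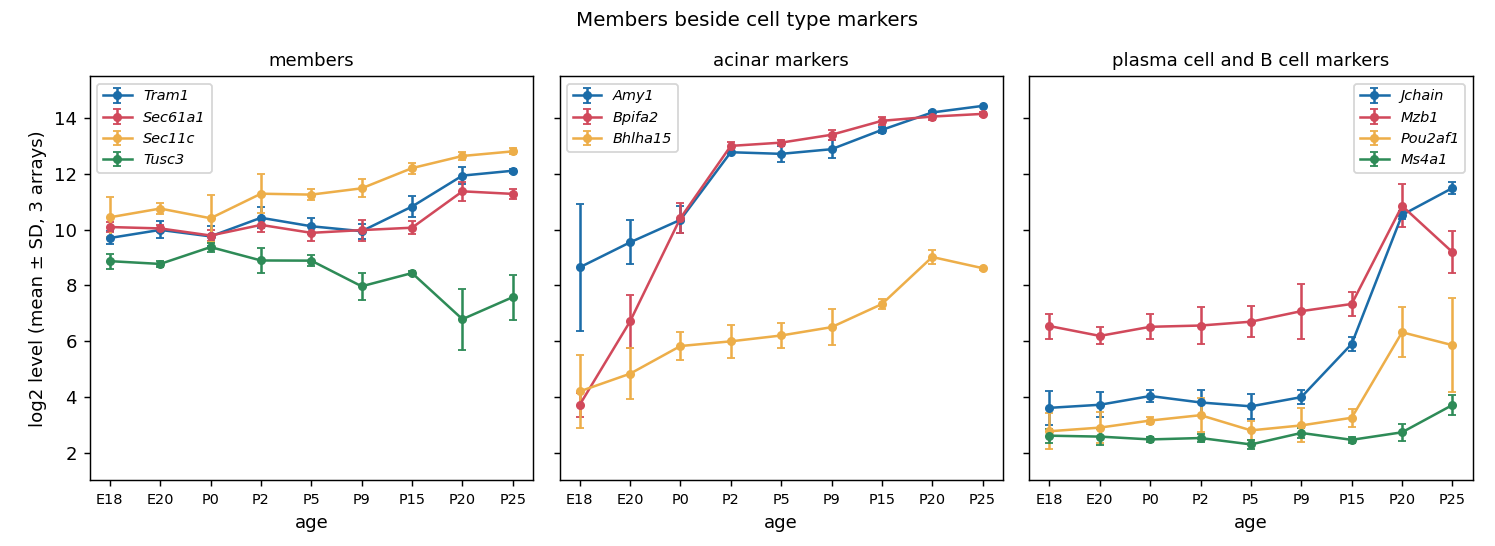
Log2 level (y axis, mean ± SD of 3 arrays) at each age (x axis) of 4 genes of the machinery, 3 acinar markers, and 4 markers of plasma cells and B cells. Tram1 and Sec61a1 are highest at P20 and P25, the ages at which Jchain stands at 10.53 and 11.49. Amy1 and Bpifa2 have most of their rise by P2. The third acinar marker, Bhlha15, rises later, with means of 5.99 at P2, 7.33 at P15, 9.02 at P20 and 8.62 at P25. The means of Ms4a1 stay below 4.

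Promoter sequence was read for the listed genes whatever their change. RefSeq windows on GRCr8, from 250 bases before to 50 bases after the start, were given for 36 of the 39 genes. They were searched on both strands for elements of the unfolded protein response, the programme through which XBP1 and ATF6 raise ER genes. The full ER stress response element (CCAAT and CCACG with 9 bases of any kind between them) was in 0 of the 36 windows and in 0.087% of 21851 windows of protein-coding genes, and the second form (ATTGG and CCACG with 1 base between them) in 0 and 0.0595%. The shorter letters ACGTG, the core bound by XBP1 and ATF6 among others, were in 16 windows (44.4%), compared with 19.8% of all, and CCACG in 18 (50%), compared with 35.5%. These 2 share letters wherever a window reads CCACGT or its reverse complement, as in Ssr1, Ssr3, Srp19, Srprb, Sec63 and Ganab. The windows were also richer in G and C, with a median of 59.3% compared with 55% for all protein-coding genes, and the shorter letters were chosen after others had been tried. The letters CATATG were searched too, and were in 2 of the 36 windows and in 3.32% of all.

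The core was in 11 of 26 genes that rose (42.3%) and in 5 of 10 of the others (50%). For CCACG the counts were 12 of 26 (46.2%) and 6 of 10 (60%). Sites of Sec11c, Ssr1, Srpra, Ssr4 and Dad1, all with rises over 1 unit, and of Srp19, which did not pass, are printed to show both kinds of gene with the same core, as 21 bases of the gene's own strand, 5′ to 3′, with the core or its reverse complement in capitals.
Sec11c (chr18:61590848-61590868, plus strand): ctatggtcACGTGccacaagg
Ssr1 (chr17:27039158-27039178, plus strand): cgccggccACGTGaccgcgcg
Srpra (chr8:41818217-41818237, plus strand): ctggtgtgACGTGtcccgcgc
Ssr4 (chrX:156675659-156675679, plus strand): gaaacggaCACGTcagtgccg
Dad1 (chr15:31667308-31667328, minus strand): atgtagtaCACGTcttcagag
Srp19 (chr18:26205726-26205746, plus strand): cttcaagcCACGTcactccga
With the start base counted as 0, the core began at -49 in Sec11c, -127 in Ssr1, 26 in Srpra, 9 in Ssr4, -161 in Dad1 and -154 in Srp19. In Sec11c and Ssr1 it was read on both strands, 1 base apart. Such a match describes letters in a window and is not a measured binding site. The window of Srpra overlapped that of Foxred1 on the other strand by 282 bases, that of Ssr4 that of Idh3g by 275, and those of Alg2 and Sec61b each other by 204 bases.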

How the data were processed

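The authors deposited log2 values per probe set, background corrected, normalised between arrays and summarised by robust multi-array average (RMA) from Affymetrix rat genome arrays; the software version is not given in the sources used here. These log2 values were used as deposited. Per the labels RNA was amplified as a whole transcriptome and labelled with biotin. Of 31099 probe sets 57 array controls were left out and 31042 tested. Gene symbols came from the platform annotation, updated by gene ID through the RefSeq table: 20826 probe sets had 1 symbol, 436 several and 9780 none. Each gene was read from its brightest single-symbol probe set.

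limma 3.58.1 in R 4.3.3 was fitted to all 27 arrays with a mean for each age, leaving 18 residual degrees of freedom, and variances were moderated by empirical Bayes. Tests were two-sided, with p-values adjusted by Benjamini and Hochberg over all probe sets, a threshold of 0.05, and contrasts of stage means, single ages and an F test. The subunit pairs were tested by exact permutation of 6 against 9 arrays in SciPy 1.17.1 (Python 3.11.15). The script was tested on simulated data. The number of arrays limits the precision. Ages were taken from the labels.

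The genes, role groups, further pathway lists and marker lists were chosen with earlier results of these data known. All 39 genes were named. Values by array were given, per role group, for the 2 largest rises and for the largest fall or smallest change in stage 4 against stage 1, and for the pairs. Sec61a1 was also shown because it was the call among the steps. Of the further lists up to 3 rises and 2 falls were named. Alternatives were quantile normalisation, centred medians, array weights, a replicate block, a brightness filter, a variance trend, gene means, marker covariates, only the ages compared, and leaving out arrays. In stage 4 compared with stage 1, the remaining marker lists had these counts of higher and lower genes: macrophage 1 and 1 of 10, adipocyte 1 and 0 of 7, endothelium 0 and 0 of 7, skeletal muscle 0 and 2 of 10, epidermis and hair 0 and 1 of 7, cartilage and bone 0 and 3 of 7, salivary duct 5 and 1 of 8, myoepithelium 4 and 2 of 7, erythroid 0 and 2 of 4.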

Additional observations from a re-analysis of the deposited data

Results flagged for a closer look

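Within stages, 156 groups of 6 or 9 arrays were examined for a single array apart from the rest, and 8 were picked out, where chance picks about 1 in 20. All 8 were lowest values. In stage 4, P20 replicate 2 was lowest for Srp14 (7.92) and Ganab (8.60), and P25 replicate 1 for Rpn1 (11.59). In stage 3, P9 replicate 2 was lowest for Tusc3 (7.40). In stage 2, P2 replicate 3 was lowest for Srp54a (7.09) and Dpagt1 (5.87), and P5 replicate 2 for Sec11a (10.94) and Ddost (8.88). The calls for Ganab, Rpn1, Srp54a and Tusc3 in stage 4 compared with stage 1 held without any 1 array.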

How the results depend on the processing

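Over the 39 genes in stage 4 compared with stage 1, direction and call were the same under array medians centred, a brightness filter, a replicate block, and only the ages compared. Counts of called genes moved as follows. With the plasma cell list they were 0 (stage 4 against stage 1, stage 4 against stage 3, P25 against E18, F test and steps) and 1 (stage 2 against stage 1, stage 3 against stage 1). With the muscle, epidermis and cartilage lists they were 14 (stage 4 against stage 3, and P25 against E18), 12 (F test) and 0 (steps). Over all probe sets the F test gave 857 calls with the plasma cell list and 3772 with the tissue lists, against 7611 without covariates. With the tissue lists calls over all probe sets went from 2594 to 1303 in stage 4 against stage 3. In P25 against E18 they went from 10393 to 4168. With the plasma cell list they went from 920 to 834 in stage 2 against stage 1, and from 4765 to 1132 in stage 3 against stage 1. Fitting only the ages compared gave 9 for P25 against E18, where calls over all probe sets went from 10393 to 2267. In stage 2 against stage 1 the count was 2 under quantile normalisation, array weights and a variance trend, and 1 under the replicate block, the brightness filter, gene means and without the muscle-high arrays. All probe sets, at 920 there, gave 753 with quantile normalisation, 1666 with array weights and 922 with a variance trend. They gave 947 with the replicate block and 765 without the muscle-high arrays. The brightness filter gave 774 of 15521 probe sets, and gene means 795 of 14217 genes. Stage 3 against stage 2 gave 1 with array weights, where calls over all probe sets went from 236 to 1157. Stage 3 against stage 1, at 9, gave 5 with medians centred and 2 without the muscle-high arrays. All probe sets, at 4765 in that contrast, gave 4424 and 2219. Steps, at 1, gave 3 with quantile normalisation and a variance trend, 6 with array weights, and 2 with gene means and the replicate block. The pairs Sec11c minus Sec11a (3.02) and Tusc3 minus Magt1 (-2.14) between P25 and E18 had p = 0.1 in the exact permutation test, the smallest 3 against 3 can give. Apart from the constructions named, the cause was not tested.

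Without single arrays the counts ran from 26 to 31 (stage 4 against stage 1), 17 to 23 (stage 4 against stage 3), 18 to 24 (P25 against E18), 20 to 23 (F test), 0 to 1 (stage 2 against stage 1), 3 to 9 (stage 3 against stage 1), 0 (stage 3 against stage 2) and 0 to 2 (steps). The Sec61a1 step was not among any calls without P15 replicate 3, P20 replicate 1 or P20 replicate 3, which left 0. Stage 3 against stage 1 had 5 without P0 replicate 1 or P9 replicate 3, 4 without P0 replicate 2 and 3 without P15 replicate 2. Pair changes ran from 2.58 to 2.85 (Sec11c minus Sec11a), -0.41 to -0.21 (Stt3a minus Stt3b) and -3.02 to -2.36 (Tusc3 minus Magt1). Besides Sec11a, Alg2, Ddost and Ostc, calls were lost for Dpagt1 (5 arrays, 0.55 to 0.81) and Stt3b (without P20 replicate 3, 0.38) and gained for Sec63 (4 arrays, 0.38 to 0.47) and Dpm1 (without P25 replicate 2, -0.52).

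Changes whose sign turned were those of genes that had not passed, or came with the plasma covariate. They were Srp19 with quantile normalisation (0.14), Stt3a (-0.034) and Dpm1 (0.0002) with gene means, Srp9 (-0.26) and Prkcsh (-0.12) with the tissue covariates, and Mogs (-0.0067) and Prkcsh (-0.022) without the muscle-high arrays. With the plasma covariate they were Srp14 (0.79), Srp19 (0.25), Ddost (-0.19), Alg2 (-0.073), Dpagt1 (-0.053) and Prkcsh (-1.47). Without single arrays Srp9 ran from -0.11 to 0.13 (-0.03 without E18 replicate 1 or 2, -0.02 without P0 replicate 2, -0.04 without P20 replicate 3) and Srp19 from -0.13 to 0.021 (without P25 replicate 2).

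Replicate numbers were shared across ages, and 11 of 108 same-numbered pairs of arrays deviated together with r over 0.1 (highest 0.459, median 0.01), against 8 of 216 with different numbers (highest 0.141, median -0.01). Since this did not hold for every pair, the numbers were not taken to pair the samples. With the replicate block 30 genes were called in stage 4 against stage 1 and 24 in stage 4 against stage 3.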
